A study of Mus musculus with 15 samples.

Results

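The PRDM family comprises transcriptional regulators that share a PR domain, a relative of the SET domain of histone methyltransferases, which most members combine with arrays of C2H2 zinc fingers. The members described here were 9 genes given by name, *Prdm1*, *Prdm2*, *Prdm4*, *Prdm6*, *Prdm10*, *Prdm11*, *Prdm14*, *Prdm15* and *Prdm16*. All 9 were found by symbol among the 55536 genes of the count table, and all 9 were among the 18090 genes that passed the filter on low counts. *Prdm6* met the cutoff of that filter in the samples of days 4 and 6, where its group means were highest, and also in some samples of the earlier groups.

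PRDM1 and PRDM14 are required for the specification of mouse primordial germ cells (PGCs). PRDM1, also called BLIMP1, represses the somatic program in the PGC precursors, and PRDM14 maintains pluripotency genes and lowers FGF signaling and the expression of DNA methyltransferases. Other members act elsewhere, for example PRDM16 in brown fat and in stem cells of blood and brain, or have broad expression.

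RNA-seq was analysed in 15 samples, 3 replicates each of naive ESCs, EpiLCs and Stella-eGFP+ PGC-like cells (PGCLCs) of days 2, 4 and 6 (D2PGCLCs, D4PGCLCs and D6PGCLCs). Naive ESCs were cultured in 2i and LIF, and EpiLCs were epiblast-like cells made from them over 48 h with Activin A, bFGF and KSR. PGCLCs were made from EpiLCs in GK15 medium, with no added cytokines, and with 2 µg/ml doxycycline (Dox) given from day 0 to switch on 4 transgenes, and the sorted eGFP reports the activity of *Stella* (*Dppa3*). All 5 groups, the ESC and EpiLC controls included, descend from Stella-eGFP ESCs, kept on feeder fibroblasts before these cultures, that carry rtTA and Dox-inducible *Prdm1*, *Prdm14* and *Nanog* in piggyBac vectors and *Tfap2c* in a lentiviral vector. Clonal lines were isolated, and how many of them gave these samples is not stated. The *Prdm1* and *Prdm14* vectors hold the coding sequence, so that gene-level counts of these genes add transgene reads to endogenous reads and cannot separate them. Neither labels nor methods say that replicates were separate inductions, so that the p-values given here measure the spread between these samples.

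The totals were 22555021 to 42725681 counts per sample. D6PGCLC replicate 1 stood apart, with 18061 genes detected against 21103 to 24343 in the other 14 samples. The labelled cell types were checked with marker lists. Summed naive ESC markers were at 2126 to 2190 CPM (counts scaled by library size) in ESCs and at 258 to 289 in EpiLCs. In PGCLCs they lay between, at 1165 to 1249 CPM on day 2, 1064 to 1201 on day 4 and 987 to 1069 on day 6. Formative markers were at 2815 to 3046 CPM in EpiLCs and at most 218 in any other sample. PGCLC markers were at 899 to 1307 CPM in PGCLCs and at most 179 in the other samples. The PGCLC list holds *Dppa3*, whose reporter was sorted, and *Tfap2c*, carried as a transgene. They had means of 452 and 232 CPM in D2PGCLCs, so that this sum is not independent of the sort and of Dox. Means of *Itgb3* and *Dazl* went from 3.59 to 125 and from 6.37 to 39.1 CPM between EpiLCs and D2PGCLCs. Those of *Dnd1* and *Nanos3* went from 12.8 to 38.2 and from 1.26 to 14.8 CPM. Feeder fibroblast markers, of which 6 of 7 had counts in EpiLCs, summed to 24.0 to 25.1 CPM there, against 7.72 to 8.41 in ESCs and 0.919 to 2.19 in PGCLCs. Among them *Dcn*, a fibroblast proteoglycan, had 134 to 180 counts per EpiLC sample and at most 3 in any other sample. The largest part of the sum was *Thy1*, with means of 12.8 CPM in EpiLCs and 5.80 in ESCs. *Col1a1*, *Col1a2* and *Col3a1* had means of 3.60, 1.53 and 0.786 CPM in EpiLCs and 1.96, 0.135 and 0 in ESCs. *Lum* went the other way, with 0 counts in EpiLCs and 1 to 3 per ESC sample, and *Postn* had at most 4 counts. Trophoblast markers, with *Tpbpa* at 0 throughout, summed to 0.134 to 0.547 CPM in ESCs and to 6.47 to 8.59 in EpiLCs. In PGCLCs this sum was 7.59 to 14.9 CPM on day 2, 10.5 to 12.9 on day 4 and 15.1 to 21.7 on day 6. Most of it was *Gcm1* in EpiLCs and D2PGCLCs, at means of 6.38 and 8.68 CPM. The sum of the neural markers was mostly *Tubb3*, at 28.0 ± 6.04 CPM in D6PGCLCs and 98.7 ± 16.9 in D2PGCLCs, whereas *Pax6* was at 6.13 ± 2.03 and 4.27 ± 1.19 and *Sox1* at 1.01 ± 0.400 and 0.206 ± 0.226.

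Levels of a single gene are given in CPM, which was computed with TMM normalization, and levels of different genes are compared only per length, in FPKM over the merged exons. Differences are log2 fold changes (log2FC, given with its standard error, SE) from edgeR's quasi-likelihood test, fitted over all 15 samples with p-values adjusted over the 18090 genes. "Rose" and "fell" are used at an adjusted p under 0.05, and a change was called when the log2FC was also above 1 or below -1.

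Per length, *Prdm14* had the highest level of the 9 members in each of the 5 groups, with means (± SD, n = 3) of 17.5 ± 1.00 FPKM for ESCs, 37.6 ± 5.99 for EpiLCs and 36.4 ± 0.843 for D2PGCLCs. *Prdm1* changed its place among the members. It ranked 5 in ESCs at 1.95 ± 0.0834 FPKM, or 6 when the longest transcript was taken as the length, and 2 in D2PGCLCs at 19.0 ± 1.20 FPKM. In D6PGCLCs it was at 10.7 ± 0.515 FPKM, below *Prdm4* at 12.7 ± 0.432 and *Prdm2* at 11.6 ± 0.840. *Prdm4* and *Prdm2* kept levels of 10.5 to 14.7 FPKM in the 5 groups, and *Prdm10* was at 3.46 to 4.37 and *Prdm15* at 1.43 to 1.98 FPKM. *Prdm16* went from 0.396 ± 0.0839 FPKM in EpiLCs to 2.04 ± 0.210 in D6PGCLCs. *Prdm11* did not exceed 0.607 FPKM and *Prdm6* did not exceed 0.403 FPKM in any group mean. These levels take reads as spread over all exons, which reads of a transgene without untranslated regions would not be.

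**Figure D1:**
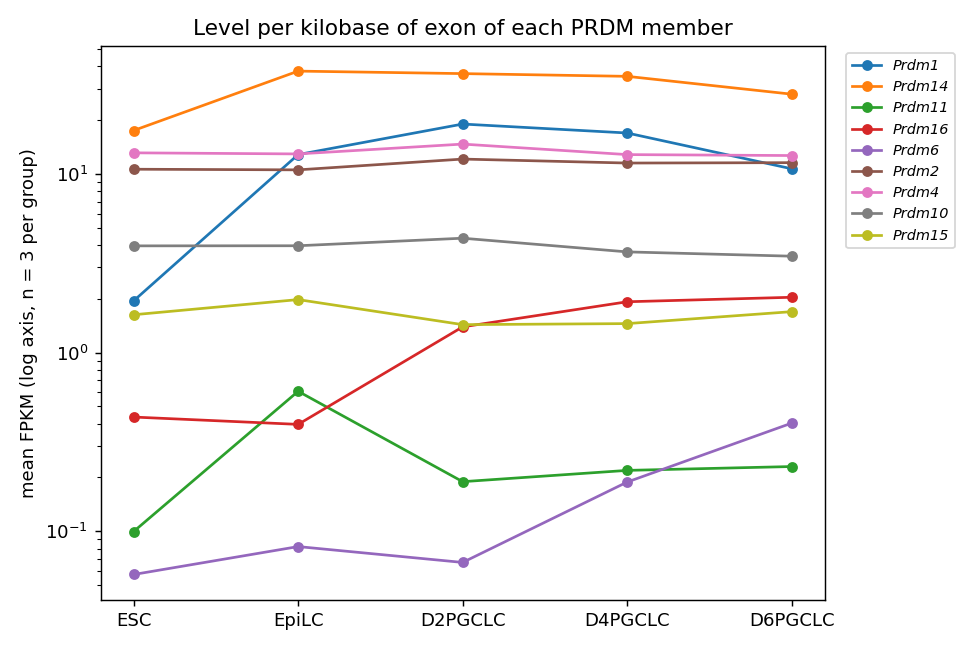
Mean level of each PRDM member per kilobase of merged exon (FPKM, log axis, n = 3 per group) in the 5 groups. *Prdm14* is at the top in every group, *Prdm1* climbs from 1.95 in ESCs to 19.0 in D2PGCLCs, and *Prdm6* and *Prdm11* stay below 1.

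*Prdm1* (ENSMUSG00000038151, chr10:44437177-44528501, minus strand, mm10) had its lowest level in ESCs and its highest on day 2. The samples had 11.3, 10.8 and 10.4 CPM in ESCs, 59.6, 80.9 and 74.2 in EpiLCs, 114, 101 and 103 in D2PGCLCs, 108, 85.9 and 89.3 in D4PGCLCs, and 60.4, 62.0 and 56.4 in D6PGCLCs. The 3 ESC samples lay far below the others, the ranges of days 2 and 4 overlapped, and so did those of EpiLCs and D6PGCLCs. From ESCs to EpiLCs, before Dox, *Prdm1* rose by a log2FC of 2.72 (SE 0.12, adjusted p = 1.13e-12). Feeder markers were also higher in EpiLCs than in ESCs, as given above, and their part in this difference was not tested. From EpiLCs to D2PGCLCs, with the addition of Dox, the change was 0.57 (95% confidence interval 0.34 to 0.79), which passed the adjusted p but not the fold threshold.

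Later, *Prdm1* fell. Its log2FC was -0.17 from day 2 to day 4 (adjusted p = 0.348), -0.67 from day 4 to day 6 (SE 0.11, adjusted p = 0.000578) and -0.83 from day 2 to day 6 (95% confidence interval -1.06 to -0.61, adjusted p = 9.45e-06). D6PGCLCs still had 5.49-fold the level of ESCs (log2FC 2.46, adjusted p = 5.67e-12). Against EpiLCs the level on day 6 was lower by a log2FC of -0.26 (adjusted p = 0.0406), and this difference was not past the threshold without EpiLC replicate 2 (adjusted p = 0.252), EpiLC replicate 3 (0.128), D6PGCLC replicate 1 (0.0757) or D6PGCLC replicate 3 (0.136). In bulk samples, fewer cells that express a gene and less RNA per cell cannot be told apart.

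**Figure D2:**
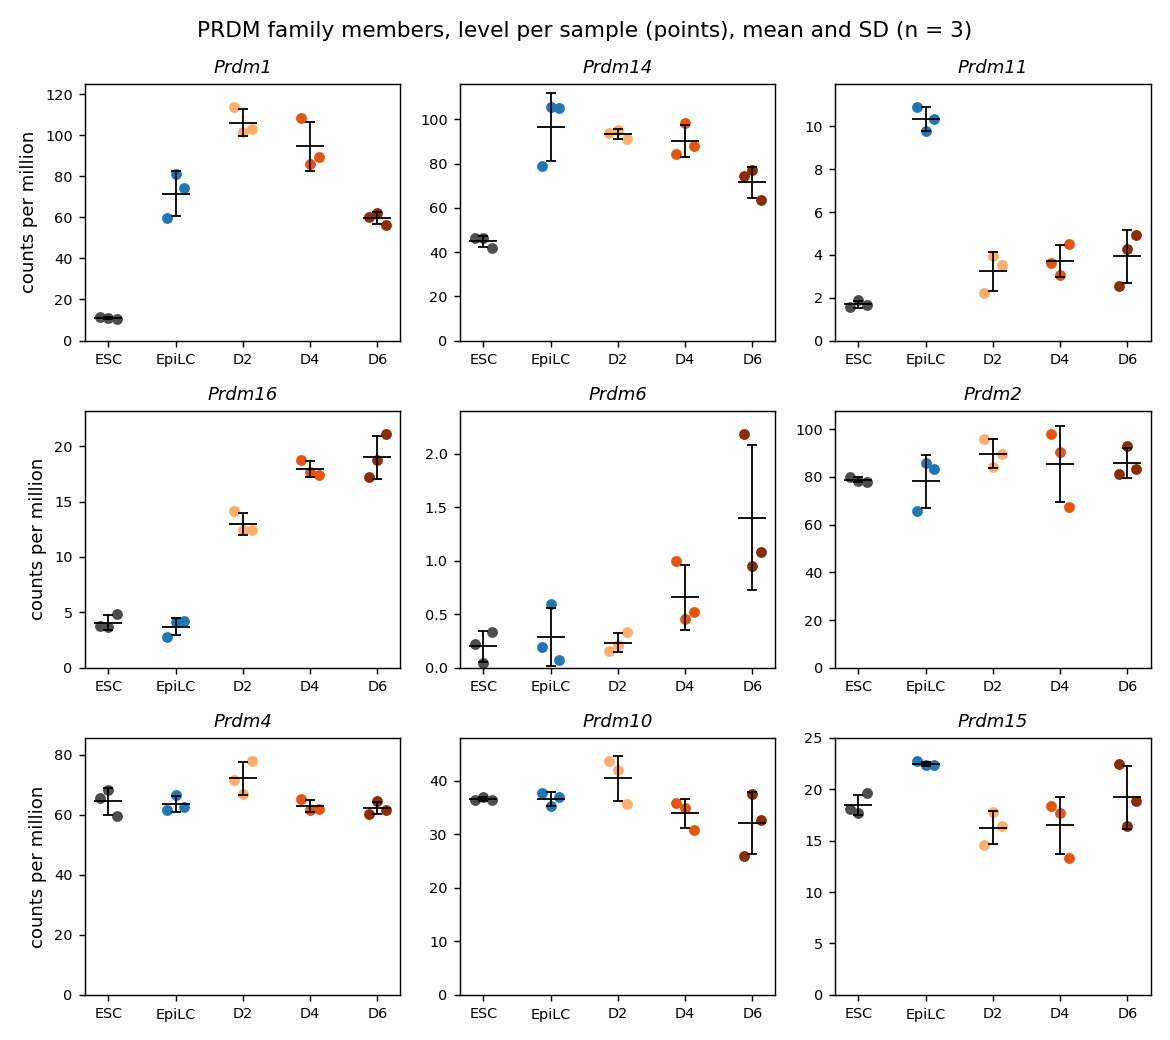
Level of each PRDM member in CPM in every sample (points, linear axes from 0), with mean and SD (bars, n = 3), in ESCs, EpiLCs and PGCLCs of days 2, 4 and 6. *Prdm1* is at 10.4 to 11.3 CPM in ESCs and 101 to 114 in D2PGCLCs, *Prdm11* is highest in EpiLCs, *Prdm16* is at 12.4 CPM or more in every PGCLC sample, and the last 4 panels stay within narrow ranges.

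The *Prdm1* promoter region is shown because the gene had the widest range of mean CPM among the members, 9.76-fold between ESCs and D2PGCLCs. The RefSeq table (GRCm38.p6) gives 250 bases before each transcript start and 50 after it, and 6 of the 9 members had an entry that was scanned. In this table the *Prdm1* start lies within the span of the gene in GENCODE M21. The 300 bases held 20 CpG dinucleotides, and 73.5% of the 32851 promoters of this length held fewer. They were searched on both strands for GAAAG, the core of the sequence bound by PRDM1, which 57.3% of all promoters held, and for GCCNNNGGC, a form of the AP-2 motif, which 16.6% held. Neither was in the *Prdm1* window. The 250 bases before the start (chr10:44458749-44458998, minus strand) read:
Prdm1: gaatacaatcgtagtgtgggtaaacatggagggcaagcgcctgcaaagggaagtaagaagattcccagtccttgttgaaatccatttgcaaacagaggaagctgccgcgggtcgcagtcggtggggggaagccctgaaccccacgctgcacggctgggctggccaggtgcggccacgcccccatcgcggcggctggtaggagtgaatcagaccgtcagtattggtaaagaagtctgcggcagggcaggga

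*Prdm14* (ENSMUSG00000042414, chr1:13113457-13127163, minus strand) was also higher in EpiLCs than in ESCs, and no difference between EpiLCs and days 2 or 4 was detected. The samples had 46.2, 46.4 and 41.9 CPM in ESCs, 78.7, 106 and 105 in EpiLCs, 94.0, 95.2 and 91.0 in D2PGCLCs, 84.3, 98.4 and 87.8 in D4PGCLCs, and 74.3, 76.9 and 63.7 in D6PGCLCs. The D6PGCLC samples were above all ESC samples and below all samples of EpiLCs and of days 2 and 4. The rise from ESCs to EpiLCs was 2.15-fold (log2FC 1.11, SE 0.11, adjusted p = 7.14e-08). Between EpiLCs and D2PGCLCs the log2FC was -0.05 (95% confidence interval -0.27 to 0.17, adjusted p = 0.735). From day 2 to day 6 *Prdm14* fell by 0.38 on the log2 scale (SE 0.10, adjusted p = 0.00785). The step from day 4 to day 6, -0.33 (adjusted p = 0.044), was not past the threshold with DESeq2's size factors (adjusted p = 0.0605), in a fit of these groups alone (0.0976), or without D4PGCLC replicate 2 (0.169), D4PGCLC replicate 3 (0.0674), D6PGCLC replicate 1 (0.0785) or D6PGCLC replicate 3 (0.162).

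The other genes carried as transgenes were read beside *Prdm1* and *Prdm14*. *Tfap2c*, the AP-2 factor of the PGC network, had 53.0 to 60.0 CPM in EpiLCs, 222 to 239 in D2PGCLCs and 157 to 166 in D6PGCLCs. It rose by a log2FC of 2.05 from EpiLCs to day 2 (SE 0.08, adjusted p = 2.53e-13) and fell by 0.52 from day 2 to day 6 (adjusted p = 2.43e-05). *Nanog*, a pluripotency factor, was at 686 to 698 CPM before induction of EpiLCs, at 462 to 583 in these cells and at 790 to 889 on day 2. Its log2FC was 0.63 from EpiLCs to day 2 (adjusted p = 6.32e-05) and -0.19 from day 2 to day 6 (adjusted p = 0.162). Of these 4 genes, *Tfap2c* was the only gene called at the step at which Dox was added. How much of each count came from a transgene was not measured.

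**Figure D3:**
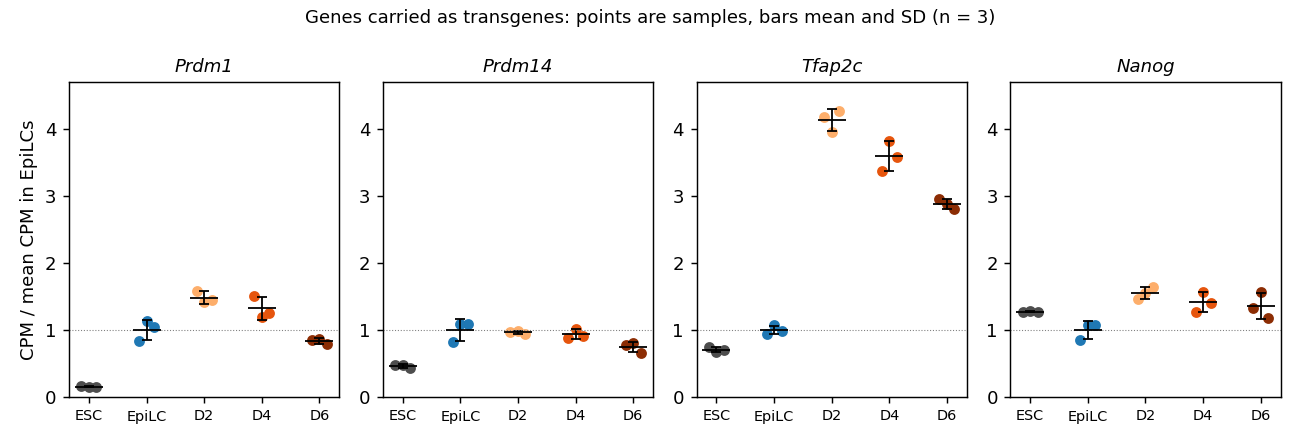
Level of the 4 genes carried as transgenes, as CPM divided by the mean CPM of that gene in EpiLCs (linear axis), in every sample (points) with mean and SD (bars, n = 3). *Tfap2c* is near 4 on day 2, *Prdm1* and *Nanog* are near 1.5, and *Prdm14* stays near 1 before it falls on day 6.

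Within each sample the FPKM of *Prdm1* was lower than that of *Prdm14*, but the ratio was not constant. *Prdm1* over *Prdm14* spanned 0.107 to 0.114 for ESCs, 0.325 to 0.352 for EpiLCs, 0.490 to 0.556 for D2PGCLCs, 0.401 to 0.591 in D4PGCLCs and 0.370 to 0.407 in D6PGCLCs. The ranges of ESCs, EpiLCs and D2PGCLCs did not overlap. In an exact two-sided permutation test of the log2 ratio, the step from ESCs to EpiLCs and the step from EpiLCs to D2PGCLCs each gave p = 0.1, the smallest p that 3 samples against 3 allow, and the later steps gave 0.6 and 0.2.

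Over the 15 samples, log2(CPM + 1) of *Prdm1* and *Prdm14* had a Pearson r of 0.936, the highest of the 36 pairs of members, and 0.964 over the 5 group means. The samples fall into 5 groups, and without the ESCs r was 0.617 over 12 samples. Only 4 other pairs were above 0.5, namely *Prdm11* with *Prdm14* (0.620), *Prdm6* with *Prdm16* (0.619), *Prdm1* with *Prdm16* (0.580) and *Prdm1* with *Prdm11* (0.507). Among 9175 genes with a mean of at least 10 CPM, the genes most like *Prdm1* over the 15 samples were *Hbp1* (r = 0.989), *Esrp1* (0.987), a splicing regulator of epithelial cells, and *Ssx2ip* (0.986). For *Prdm14* they were *Hbs1l* (0.962), *Myb* (0.960) and *Hbp1* (0.960). *Hbs1l* (chr10:21295979-21368898) and *Myb* (chr10:21124935-21160984), a transcription factor of blood progenitors, lie on the same chromosome with 134994 bases between them. *Myb* had a mean of 6.53 CPM in ESCs, 42.7 in EpiLCs, 51.6 in D2PGCLCs and 21.7 in D6PGCLCs, and *Esrp1* 2.61 in ESCs, 149 in EpiLCs, 186 in D2PGCLCs and 81.0 in D6PGCLCs. All these points share the same libraries.

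*Prdm11* and *Prdm16* moved in opposite directions when EpiLCs became PGCLCs. *Prdm11* (ENSMUSG00000075028, chr2:92965151-93046167, minus strand) encodes a member with a PR domain that has been linked to growth control in B cells. The samples had 1.57, 1.89 and 1.64 CPM in ESCs, 10.9, 9.80 and 10.3 in EpiLCs, 2.21, 3.94 and 3.54 in D2PGCLCs, 3.64, 3.04 and 4.53 in D4PGCLCs, and 2.55, 4.29 and 4.93 in D6PGCLCs. Every EpiLC sample was above every other sample, every ESC sample was below every other sample, and the 3 days of PGCLCs overlapped.

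*Prdm11* rose in EpiLCs by a log2FC of 2.61 (SE 0.27, adjusted p = 1.64e-07) and fell in D2PGCLCs by 1.68 on the log2 scale (SE 0.25, adjusted p = 1.69e-05). From day 2 to day 6 the change was 0.28 (adjusted p = 0.401). D6PGCLCs were above ESCs by 1.21 (adjusted p = 0.000875) and below EpiLCs by a log2FC of -1.40 (adjusted p = 8.63e-05). Feeder markers were also highest in EpiLCs, at 24.0 to 25.1 CPM in sum, and their part in the level of *Prdm11* was not tested.

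*Prdm16* (ENSMUSG00000039410, chr4:154316125-154636873, minus strand) had 3.72, 3.64 and 4.82 CPM in ESCs, 2.79, 4.11 and 4.18 in EpiLCs, 14.1, 12.4 and 12.4 in D2PGCLCs, 18.8, 17.7 and 17.4 in D4PGCLCs, and 17.2, 18.7 and 21.1 in D6PGCLCs. ESCs and EpiLCs overlapped, and all 9 PGCLC samples were above all 6 samples of these groups. *Prdm16* had a log2FC of -0.14 from ESCs to EpiLCs (adjusted p = 0.529) and rose by 1.81 in D2PGCLCs (SE 0.16, adjusted p = 3.42e-08). From day 2 to day 4 the change was 0.47 (adjusted p = 0.0523, and 0.0182 with DESeq2), and from day 2 to day 6 it rose by 0.55 (SE 0.15, adjusted p = 0.00788). On day 6 it was at 5.13-fold the level of EpiLCs and 4.66-fold that of ESCs. Exons of *Prdm16* share 109 bases with a gene on the opposite strand, and whether counting used strand is not stated.

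The promoters of these genes are shown because both changed by more than 3-fold when EpiLCs became PGCLCs, in opposite directions. The 300 bases at the *Prdm11* start held 32 CpG dinucleotides, and 90.5% of promoters held fewer. GAAAG occurred 3 times and GCCNNNGGC did not. At *Prdm16* there were 24 CpG dinucleotides, with fewer in 80.0% of promoters, and GCCNNNGGC occurred 1 time and GAAAG did not. Members that varied little also held these motifs, both of them at *Prdm4* and *Prdm15* and GAAAG at *Prdm10*. Of the 9 promoters of the 6 members scanned, 6 held GAAAG and 4 held GCCNNNGGC, beside 57.3% and 16.6% of all promoters. A match is only a match of letters, and binding was not measured. The bases before the start are given for *Prdm11* (chr2:93046166-93046415, minus strand) and *Prdm16* (chr4:154636874-154637123, minus strand), with these matches in capitals, where CTTTC is GAAAG on the other strand:
Prdm11: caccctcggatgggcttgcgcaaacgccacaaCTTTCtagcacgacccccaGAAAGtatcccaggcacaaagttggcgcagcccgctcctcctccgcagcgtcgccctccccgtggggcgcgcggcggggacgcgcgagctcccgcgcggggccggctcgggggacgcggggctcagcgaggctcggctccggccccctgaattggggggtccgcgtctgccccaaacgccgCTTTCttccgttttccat
Prdm16: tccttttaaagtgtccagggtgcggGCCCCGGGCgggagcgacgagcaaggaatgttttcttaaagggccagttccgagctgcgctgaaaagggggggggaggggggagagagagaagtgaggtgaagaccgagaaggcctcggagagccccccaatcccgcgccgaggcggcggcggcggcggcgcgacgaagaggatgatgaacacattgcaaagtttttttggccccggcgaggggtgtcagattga

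The genes most like these in expression were looked up in the same way, a choice made after their values were seen. For *Prdm11* they were *Pi4k2b* (r = 0.961), *Mafk* (0.959) and *Ssbp3* (0.956), and for *Prdm16* *Sh3pxd2b* (0.989), *Mep1b* (0.986) and *Psap* (0.986). *Sh3pxd2b*, a scaffold protein of podosomes, had means of 4.22, 3.84, 12.2, 19.4 and 17.2 CPM in ESCs, EpiLCs and days 2, 4 and 6, close to those of *Prdm16* at 4.06, 3.70, 13.0, 17.9 and 19.0 CPM.

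*Prdm6* (ENSMUSG00000069378, chromosome 18), a repressor known from vascular smooth muscle, had few counts, and more of them late. There were 6, 1 and 10 counts in the ESC samples, 5, 18 and 2 in EpiLCs, 5, 6 and 11 in D2PGCLCs, 33, 15 and 18 in D4PGCLCs, and 83, 43 and 38 in D6PGCLCs. In CPM the D6PGCLC samples were at 2.18, 0.947 and 1.08, all above the samples of ESCs, EpiLCs and D2PGCLCs, and D4PGCLC replicate 1, at 1.00, lay within their range. No step between neighbouring time points passed the threshold. The log2FC on day 6 was 2.56 from day 2 (SE 0.69, adjusted p = 0.00677), 2.74 from ESCs (SE 0.71, adjusted p = 0.00308) and 2.25 from EpiLCs (SE 0.68, adjusted p = 0.00815), with wide intervals (from 1.12 to 4.01 against day 2).

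D6PGCLC replicate 1 was the highest sample of *Prdm6* and is the sample with few detected genes. Without it the log2FC values were 2.10, 2.29 and 1.79 (adjusted p = 0.027, 0.0126 and 0.0345). The fold against ESCs moved by more than 1.5 times without ESC replicate 3, to a log2FC of 3.33, and that against EpiLCs without EpiLC replicate 2, to 3.38. Some markers of other cell types were also higher on the later days, and others were not. *Gata6*, an endoderm factor, had 4 to 13 counts in D2PGCLCs, 53 to 70 in D4PGCLCs and 257 to 536 in D6PGCLCs, and *Hand1*, a factor of trophoblast and mesoderm, 29 to 47, 97 to 140 and 352 to 719. Of 5 extraembryonic endoderm markers, 4 rose from day 2 to day 6, with *Foxa2* at 0 to 2 counts on day 6. Of the 3 trophoblast markers tested, *Hand1* rose and *Gcm1* fell (8.68 ± 3.51 to 4.08 ± 1.05 CPM, adjusted p = 0.00609). These counts stand beside 37.7% of all genes that passed the adjusted p in either direction. The endoderm markers summed to 95.3 to 99.5 CPM on day 2 and 139 to 141 on day 6, and were at 288 to 302 in ESCs, most of it *Sparc*. The part of such cells in the *Prdm6* counts was not tested.

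The other 4 members varied little. *Prdm2*, also known as RIZ, had group means between 78.2 ± 11.0 CPM in EpiLCs and 89.8 ± 5.93 in D2PGCLCs, *Prdm4*, a partner of PRMT5 in neural progenitors, between 62.3 ± 2.12 in D6PGCLCs and 72.2 ± 5.51 in D2PGCLCs, and *Prdm10* between 32.1 ± 5.79 in D6PGCLCs and 40.4 ± 4.18 in D2PGCLCs (SD, n = 3). The highest group mean was 1.15, 1.16 and 1.26 times the lowest, respectively. In contrast, this factor was 2.15 for *Prdm14*, 5.14 for *Prdm16*, 6.09 for *Prdm11* and 7.03 for *Prdm6*. *Prdm2* did not pass the threshold in any of the 7 comparisons, with log2FC values of -0.07 to 0.20.

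*Prdm4* and *Prdm10* fell slightly from day 2 to day 6, by 0.21 (adjusted p = 0.0423) and 0.33 (adjusted p = 0.03) on the log2 scale. Neither held in every fit that left out a sample. *Prdm4* was not past the threshold without D2PGCLC replicate 1 (adjusted p = 0.0788), D2PGCLC replicate 3 (0.185), D6PGCLC replicate 1 (0.127) or D6PGCLC replicate 3 (0.1), nor without the filter on low counts (0.137), with DESeq2's size factors (0.0518) or in a fit of these groups alone (0.0927), and *Prdm10* was not without D2PGCLC replicate 1 (0.121), D2PGCLC replicate 2 (0.0801), D6PGCLC replicate 1 (0.18) or D6PGCLC replicate 3 (0.0608), nor in a fit of these groups alone (0.0842). Exons of *Prdm10* share 129 bases with a lincRNA on the opposite strand.

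*Prdm15* (ENSMUSG00000014039, chr16:97791467-97851850), a regulator of naive pluripotency in ESCs, was highest in EpiLCs at 22.7, 22.3 and 22.3 CPM. It had 18.1, 17.7 and 19.6 CPM in ESCs, 14.6, 17.8 and 16.4 in D2PGCLCs, 18.4, 17.7 and 13.3 in D4PGCLCs and 22.5, 16.4 and 18.8 in D6PGCLCs. EpiLC samples lay above all samples of ESCs and of days 2 and 4, and D6PGCLC replicate 1 lay within the EpiLC range. The log2FC was 0.28 from ESCs to EpiLCs (adjusted p = 0.0946) and *Prdm15* fell by 0.47 on the log2 scale from EpiLCs to D2PGCLCs (SE 0.14, adjusted p = 0.00783).

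When the 5 groups were put in the order of their mean CPM for each member, 8 of the 36 neighbouring pairs differed at an adjusted p under 0.05. For *Prdm1* the order was ESC, D6PGCLC, EpiLC, D4PGCLC and D2PGCLC, and only the last pair, days 4 and 2, did not pass. For *Prdm14* the pairs ESC with D6PGCLC and D6PGCLC with D4PGCLC differed, and D4PGCLC, D2PGCLC and EpiLC followed with no neighbours past the threshold. For *Prdm11*, ESC was separate from D2PGCLC (log2FC 0.93, adjusted p = 0.00831) and D6PGCLC from EpiLC, and for *Prdm16* only ESC from D2PGCLC. No neighbours passed for *Prdm2*, *Prdm4*, *Prdm6*, *Prdm10* or *Prdm15*.

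The members called were counted in each comparison beside all genes tested. In EpiLCs against ESCs, 3 of the 9 members were called higher (*Prdm1*, *Prdm11* and *Prdm14*), beside 14.4% of all genes, and 0 lower by either tool (0 also unadjusted), beside 11.9%. At the adjusted p alone there were also 3 of 9, beside 52.5% of genes. From EpiLCs to D2PGCLCs 1 member was called higher (*Prdm16*, beside 11.0% of genes) and 1 lower (*Prdm11*, beside 14.4%), and 4 members passed the adjusted p, beside 53.2%. The median log2FC of the 9 members was 0.28 and 0.14 in these comparisons, and that of all genes -0.01 and 0.00.

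Among PGCLCs the members called were few, and more passed the adjusted p over the whole interval. From day 2 to day 4, 0 members were called in either direction in edgeR and in DESeq2 (at an unadjusted p under 0.05, 2 were higher and 2 lower), beside 2.56% of genes higher and 0.376% lower, and 0 passed the adjusted p, beside 11.9%. From day 4 to day 6, 0 were called by either tool (unadjusted, 0 higher and 2 lower), beside 2.29% higher and 0.785% lower, and 2 passed the adjusted p, *Prdm1* and *Prdm14*, beside 12.8%. From day 2 to day 6, 1 member was called higher (*Prdm6*, beside 10.9%) and 0 lower by either tool (4 unadjusted), beside 2.75%. At the adjusted p alone 2 were higher and 4 lower, beside 37.7% of genes in either direction.

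**Figure D4:**
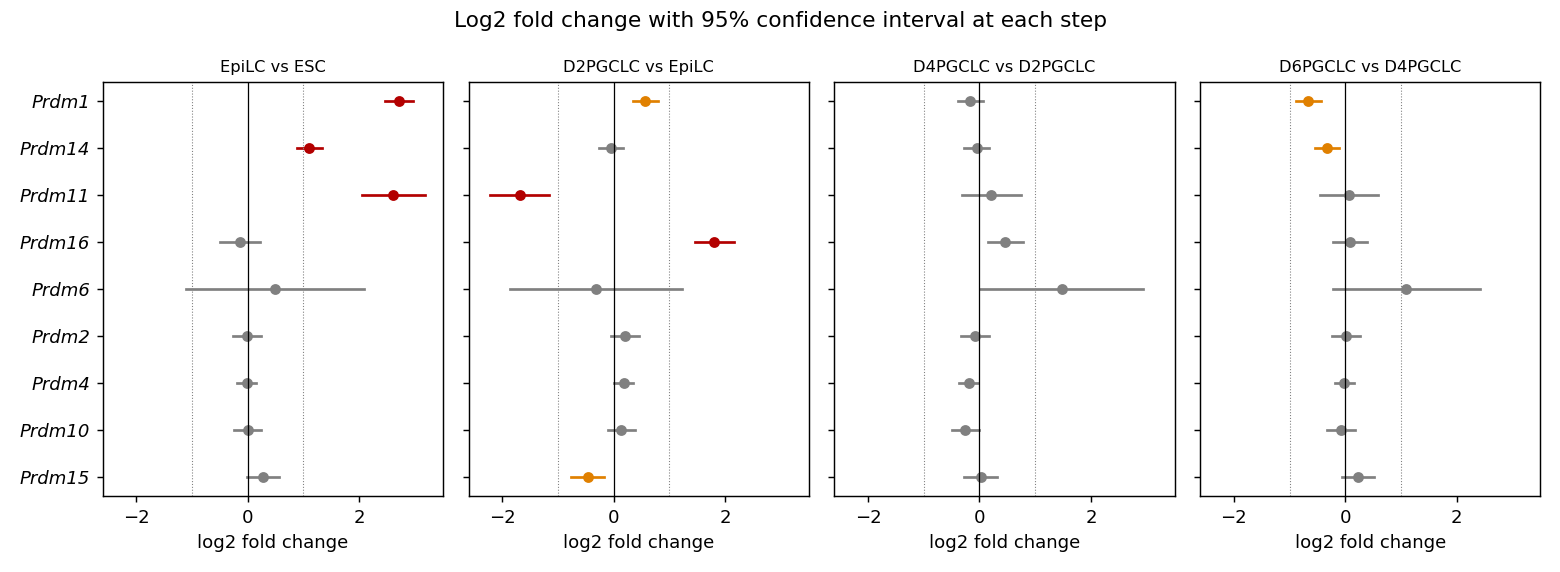
Log2 fold change of each PRDM member at each of the 4 steps, with 95% confidence interval (lines) from edgeR. Red marks called changes, orange an adjusted p under 0.05 only, grey neither, and dotted lines stand at -1 and 1. The called changes lie in the first 2 panels, and the intervals of *Prdm6* are the widest.

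D6PGCLCs were also compared with both starting points, with which the comparisons above share samples. Against ESCs, 4 members were called higher (*Prdm1*, *Prdm6*, *Prdm11* and *Prdm16*), beside 15.8% of genes, and 0 lower by either tool (0 also unadjusted), beside 10.3%, and 5 passed the adjusted p, beside 53.7%. The fifth was *Prdm14*, with a log2FC of 0.68 (adjusted p = 3.02e-05). Against EpiLCs, 2 were called higher (*Prdm6* and *Prdm16*, beside 15.9%) and 1 lower (*Prdm11*, beside 12.0%), and 5 passed the adjusted p, beside 57.4%. *Prdm14* was below EpiLCs by a log2FC of -0.43 (SE 0.10, adjusted p = 0.00182).

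Of 6 other PRDM genes, 4 passed the filter. *Mecom*, the family member EVI1 of blood stem cells, had 0.693 to 1.14 CPM in ESCs, 1.21 to 1.61 in EpiLCs, 4.69 to 6.36 on day 2, 5.90 to 8.49 on day 4 and 2.44 to 4.78 on day 6. It rose from EpiLCs to day 2 by a log2FC of 1.98 (SE 0.29, adjusted p = 1.15e-05) and fell by 1.09 on the log2 scale from day 4 to day 6 (adjusted p = 0.0109). *Zfp408* had its lowest level in EpiLCs, at 12.8 to 13.7 CPM against 19.4 or more in all other samples, with log2FC values of -0.95 (adjusted p = 7.25e-07) and 0.87 (adjusted p = 2.15e-06) at the steps from ESCs and to day 2.

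*Prdm9*, the histone methyltransferase that places meiotic recombination, was at 1.09 to 2.94 CPM in EpiLCs and 3.94 to 4.42 on day 6, where it was above EpiLCs by 1.13 (SE 0.28, adjusted p = 0.00204) and above day 2 by 0.80 (adjusted p = 0.0287). Against ESCs, at 2.37 to 3.08 CPM, the difference was 0.65 (adjusted p = 0.0549). *Prdm8* had at most 18 counts in a sample and did not pass the threshold in any comparison. *Prdm12*, with at most 3 counts, and *Prdm13*, with at most 16, were not tested.

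**Figure D5:**
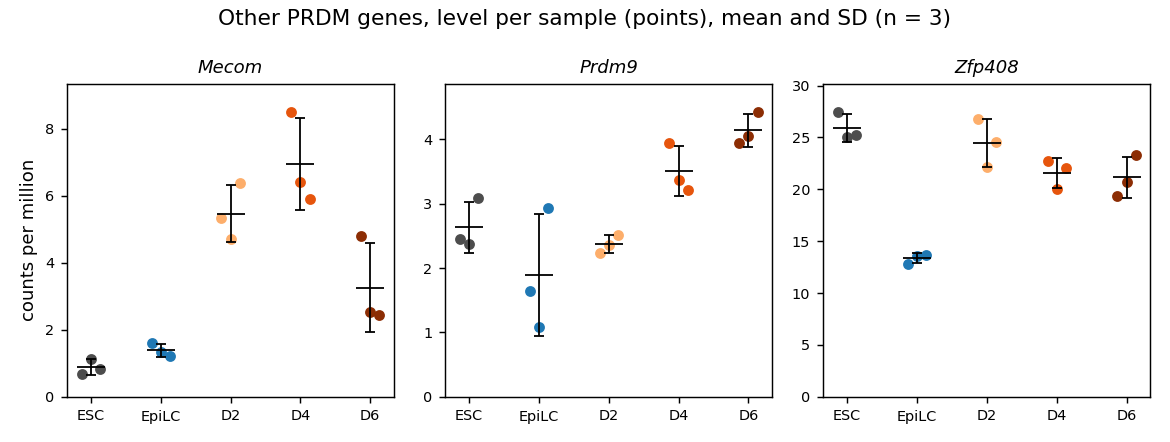
Level of *Mecom*, *Prdm9* and *Zfp408* in CPM in every sample (points, linear axes from 0), with mean and SD (bars, n = 3). *Zfp408* dips in EpiLCs, and *Mecom* is at 4.69 to 8.49 CPM on days 2 and 4 against at most 1.61 before.

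The genes with which PRDM1 and PRDM14 form the PGC network were taken from a list of 11. From ESCs to EpiLCs, 3 rose and 7 fell at the adjusted p, beside 52.5% of all genes in either direction, with *Kit* (-2.53), *Tcl1* (-1.96) and *Nanos3* (-1.25) showing the largest log2FC values. From EpiLCs to D2PGCLCs, 11 of 11 rose, where 53.2% of all genes passed in either direction, led by *Itgb3* (5.12), an integrin used to sort PGCLCs, *Nanos3* (3.55), a translational repressor of PGCs, and *Kit* (3.46), the receptor of stem cell factor. The median of the list was 2.05 at this step and that of all genes 0.00. The list holds *Tfap2c* and *Nanog*, whose transgenes Dox switched on at this step, and *Dppa3*, whose reporter was sorted. For these genes the direction is not independent of the design. From day 2 to day 6, 1 rose and 5 fell, beside 37.7% of all genes, the largest being *Dnd1* (-1.02), *Nanos3* (-1.01) and *Elf3* (-0.58).

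Of 20 cofactors of PRDM1 and PRDM14, 4 rose and 7 fell from EpiLCs to D2PGCLCs, and 2 and 10 from day 2 to day 6. The 11 of 20 that passed at the former step are close to the 53.2% of all genes, and the latter 12 of 20 stand beside 37.7%. *Tle4* and *Tle3*, Groucho corepressors, fell in D2PGCLCs, by 1.01 on the log2 scale for *Tle4* and from 89.8 ± 3.36 to 31.9 ± 7.10 CPM for *Tle3*, and *Cbfa2t2*, the corepressor through which PRDM14 binds chromatin, rose by 0.63 (SE 0.07, adjusted p = 8.12e-07). *Cbfa2t2* had 81.5 ± 0.254 CPM in ESCs, 98.2 ± 3.48 in EpiLCs, 152 ± 12.9 on day 2, 139 ± 7.58 on day 4 and 111 ± 0.704 on day 6. *Tle4* was at 343 ± 42.8 CPM in EpiLCs, 170 ± 4.91 on day 2 and 75.8 ± 8.21 on day 6. *Tle2*, of the same family, rose from day 2 to day 6 by 1.31 (SE 0.42, adjusted p = 0.0195), from 1.64 ± 1.18 to 4.01 ± 1.20 CPM. *Tle1*, also of this family, was higher in D2PGCLCs, at 69.4 ± 5.30 CPM, than in EpiLCs, at 47.2 ± 2.85.

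Of 9 genes known to be repressed through PRDM14, 5 rose and 2 fell from ESCs to EpiLCs, and 3 rose and 5 fell from EpiLCs to D2PGCLCs, beside 52.5% and 53.2% of all genes in either direction. *Dnmt3b*, *Dnmt3a* and *Dnmt3l*, which establish DNA methylation, fell by 4.94, 3.74 and 2.21 on the log2 scale at the latter step. *Fgfr2*, an FGF receptor, had 0.658 ± 0.0999 CPM in ESCs, 36.1 ± 8.05 in EpiLCs, 60.1 ± 7.98 on day 2, 25.7 ± 3.13 on day 4 and 15.6 ± 0.562 on day 6. It rose in D2PGCLCs by 0.74 (SE 0.14, adjusted p = 0.000187) and fell by 1.95 on the log2 scale from day 2 to day 6 (SE 0.14, adjusted p = 2.59e-08). Of 15 genes repressed through PRDM1, 13 were tested, and 3 rose and 6 fell from EpiLCs to D2PGCLCs, also beside 53.2%. *Hoxb1*, a homeobox gene of the mesoderm program, had 19 to 33 counts in EpiLC samples and 0 in each D2PGCLC sample (adjusted p = 0.00039), and *Fgf8* 102 to 192 and 1 to 5 counts (adjusted p = 5.2e-06). The part of PRDM1 or PRDM14 in these changes was not tested.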

How the data were processed

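RNA-seq was analysed in 15 samples grouped by their labels. The authors prepared libraries with NEBNext Ultra II Directional, aligned reads to mm10 with ENSEMBL annotation and deposited raw counts per gene. Their processing notes name Trim Galore, FastQC and STAR. The counting tool, its use of strand and its treatment of reads matching several genes are not given in the sources used here. Symbols, positions and lengths are from GENCODE M21, which held all 55536 identifiers.

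Counts were tested with edgeR 4.0.16 (R 4.3.3), with TMM normalization, filterByExpr (minimum 10 counts), 1 coefficient per group over 15 samples and Benjamini-Hochberg adjustment over 18090 genes, and tested on simulated data. At these depths 3 counts are at most 0.133 CPM, which covers counting error only. FPKM was CPM per kilobase of merged exon. Replicate pairs were not duplicates of a library (chi-square per gene 8.82 to 44.6).

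The members and gene lists were chosen with earlier results of these data known. A further PRDM gene, beside the 6 described, is not reported here. All members, the other PRDM genes, *Tfap2c* and *Nanog* were named, and of other lists genes among the 3 with the largest log2 fold change past the adjusted p in a comparison, with their values in other groups. Cell type markers were named where they moved beside a result. *Tle1* was also named, as a member of the family of *Tle2*, *Tle3* and *Tle4*. Alternatives were DESeq2 1.42.0, its size factors in edgeR, no filter, no fold threshold, a replicate block, fits of 2 groups alone, another length or added value, and each sample left out.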

Additional observations from a re-analysis of the deposited data

How the results depend on the processing

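All 13 called member changes remained called in the same direction in 143 of 143 alternative values, and the members called per comparison were 3 to 3, 2 to 2, 0 to 0, 0 to 0, 1 to 1, 4 to 4 and 3 to 3 when each sample was left out (EpiLCs against ESCs, the 3 later steps, then D6PGCLCs against D2PGCLCs, ESCs and EpiLCs). With no fold threshold the count was 4 for D2PGCLCs against EpiLCs, 2 for D6PGCLCs against D4PGCLCs, 6 against D2PGCLCs and 5 against both ESCs and EpiLCs. Of 25 member changes past the adjusted p, 22 of 275 alternative values were not past it, in 4 changes named above, and 0 reversed. Of the 38 others, 7 of 416 values passed and 36 reversed, none of these past the threshold, and the cause was not tested.

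The reversed log2 fold changes for EpiLCs against ESCs were 0.0232 (DESeq2), 0.0241 (its size factors) and 0.000598 (only these groups) for *Prdm2*, 0.0157 and 0.0158 (DESeq2 and its size factors) for *Prdm4*, and -0.00874 (no filter) for *Prdm10*, and for D6PGCLCs against D4PGCLCs 0.00344 and 0.00322 (DESeq2 and its size factors) for *Prdm4*. With a sample left out, those for EpiLCs against ESCs ranged from -0.0719 to 0.115 for *Prdm2*, -0.0680 to 0.0213 for *Prdm4*, -0.618 to 1.08 for *Prdm6*, -0.00549 to 0.0423 for *Prdm10* and -0.221 to 0.0390 for *Prdm16*. D2PGCLCs against EpiLCs ranged from -0.749 to 0.814 for *Prdm6* and -0.170 to 0.0290 for *Prdm14*. D4PGCLCs against D2PGCLCs ranged from -0.184 to 0.0704 for *Prdm2*, -0.000295 to 0.376 for *Prdm11* and -0.0656 to 0.152 for *Prdm15*. D6PGCLCs against D4PGCLCs ranged from -0.141 to 0.112 for *Prdm2*, -0.0508 to 0.00425 for *Prdm4*, -0.215 to 0.0520 for *Prdm10*, -0.126 to 0.302 for *Prdm11* and -0.00237 to 0.150 for *Prdm16*. D6PGCLCs against ESCs ranged from -0.0533 to 0.156 for *Prdm15*, and against EpiLCs from -0.0581 to 0.0135 for *Prdm4*.

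In the order of group means, 8 neighbouring pairs differed, and 7 with DESeq2's size factors. Whether the replicate numbers pair the samples is not stated and was not tested. Deviations from group means had a mean r of 0.0703 over 30 pairs with the same number (lowest -0.184) and -0.0352 over 60 others. Of 15 samples, 9 correlated best with their own number. With the replicate block no count of called members changed (3 for EpiLCs against ESCs), and *Prdm16* from day 2 to day 4 passed (0.47, edgeR adjusted p = 0.0482). Depth limits *Prdm6*, with at most 83 counts in a sample.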
